A study of Mus musculus with 8 samples.

Results

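The cytochrome P450 enzymes of the Cyp1, Cyp2 and Cyp3 families, other than the Cyp2c enzymes, were followed in mouse liver together with their electron donor Por and the receptors Nr1i2, Nr1i3 and Ahr. The genes were chosen by symbol and a floor on counts, with earlier results of these data known. Protein-coding genes whose GRCm38 symbol is Cyp1, Cyp2 or Cyp3 followed by 1 letter and a number were taken, the Cyp2c symbols were left out, and Por and the 3 receptors were added. Of 47 such genes, 13 had under 80 counts over the 8 livers and were dropped, which left 34 of the 46078 genes in the table, 30 of them P450 genes. No read was counted on 8 of the 13 in any liver. A count of 0 allows up to 3 counts, or 0.0468 to 0.0929 CPM depending on the library (CPM are counts scaled to library size with TMM factors), and this limit covers counting error only. Cyp3a41a and Cyp3a41b, with 248 and 244 counts over the 8 livers, fall outside the rule because their symbols end in a letter.

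RNA-seq was done on livers of fasted mice fed a control diet (CD) for 12 weeks by the labels, with 1 library per liver and 4 livers per genotype. LWT mice carried Rbfox2 LoxP/LoxP without Alb_cre, and LΔRbfox2 mice carried the same floxed alleles with Alb_cre, so that both groups were floxed and differed in the Cre. RBFOX2 is an RNA-binding protein that regulates alternative splicing. The albumin promoter drives Cre in hepatocytes, and other liver cells keep Rbfox2. The comparison asks whether the P450 system of the liver differs at the mRNA level when hepatocytes lack RBFOX2.

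P450 enzymes of these families sit in the membrane of the endoplasmic reticulum of hepatocytes, carry a haem group and oxidise drugs, steroids, fatty acids and environmental chemicals. They take their electrons from the P450 oxidoreductase encoded by Por. The pregnane X receptor (PXR, encoded by Nr1i2), the constitutive androstane receptor (CAR, Nr1i3) and the aryl hydrocarbon receptor (AHR, Ahr) are ligand-responsive transcription factors best known for inducing Cyp3a, Cyp2b and Cyp1a genes, respectively. Many of the enzymes are made mainly by the hepatocytes around the central vein.

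Rbfox2 (ENSMUSG00000033565), the targeted gene, had 653, 518, 549 and 794 counts in LWT replicates 1 to 4 and 202, 390, 77 and 103 in LΔRbfox2 replicates 1 to 4. Every LΔRbfox2 liver was under every LWT liver, at 4.03 ± 1.68 CPM against 14.3 ± 3.96 CPM (SD, n = 4 each), and LΔRbfox2 replicate 2 kept the most. Its log2 fold change of −1.82 (standard error 0.32 from limma-voom) had an adjusted P of 0.504, by the quasi-likelihood test of edgeR with Benjamini-Hochberg adjustment. Total counts ranged from 37482458 to 56177588 per liver. The TMM factors were between 1.02 and 1.14 in 6 livers and 0.724 and 0.776 in LΔRbfox2 replicates 3 and 4. The major urinary protein genes took 43.6% and 37.5% of the counts of these libraries, and 37.1% in LWT replicate 1, whose factor was 1.02. The hepatocyte markers (Alb, Apoa1, Ttr, Tat and Serpina1a) summed to between 44436 and 72143 CPM in every liver, and 4 Y-linked genes had at least 3703 counts in each. On the principal axis of log2 CPM over all genes, which held 54.1% of the variance, LWT replicates 1 and 4 and LΔRbfox2 replicate 2 lay at −59.4, −54.6 and −35.9, and the other livers between 3.97 and 56.0.

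Of the 6 genes that were higher in LΔRbfox2 livers at an unadjusted P under 0.05, 5 were Cyp3a genes, so the sequences at Cyp3a start sites are shown first. The windows are RefSeq sequence of GRCm38.p6, from 250 bases before to 50 bases after the start of each gene, written in the direction of the gene. Capitals mark the letters AGGTCA and AGTTCA, which are half-sites that nuclear receptors such as PXR and CAR bind in pairs, on either strand (on the opposite strand they read TGACCT and TGAACT). Cyp3a11, Cyp3a25 and Cyp3a59 are shown as neighbours in 1 cluster with higher means in LΔRbfox2 livers, and Cyp3a13, which lies apart from the cluster, as the family member with like means in both genotypes.
Cyp3a11 (chr5:145879805-145880104, minus strand): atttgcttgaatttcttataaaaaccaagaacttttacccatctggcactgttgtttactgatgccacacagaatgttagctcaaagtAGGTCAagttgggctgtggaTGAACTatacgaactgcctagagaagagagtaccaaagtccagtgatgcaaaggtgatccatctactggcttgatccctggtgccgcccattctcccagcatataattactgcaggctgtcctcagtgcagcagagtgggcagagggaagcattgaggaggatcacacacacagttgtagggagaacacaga
Cyp3a25 (chr5:146009569-146009868, minus strand): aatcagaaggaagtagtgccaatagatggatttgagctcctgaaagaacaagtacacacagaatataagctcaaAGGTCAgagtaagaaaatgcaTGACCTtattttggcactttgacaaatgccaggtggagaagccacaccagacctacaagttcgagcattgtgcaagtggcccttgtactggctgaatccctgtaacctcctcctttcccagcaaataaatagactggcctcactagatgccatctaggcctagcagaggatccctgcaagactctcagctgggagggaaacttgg
Cyp3a59 (chr5:146079008-146079307, plus strand): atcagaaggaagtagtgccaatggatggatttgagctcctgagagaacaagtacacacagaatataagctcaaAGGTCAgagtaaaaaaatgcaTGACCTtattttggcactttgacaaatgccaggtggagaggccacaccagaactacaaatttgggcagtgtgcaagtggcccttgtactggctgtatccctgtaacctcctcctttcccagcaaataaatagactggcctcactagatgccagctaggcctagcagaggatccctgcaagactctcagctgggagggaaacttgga
Cyp3a13 (chr5:137921570-137921869, minus strand): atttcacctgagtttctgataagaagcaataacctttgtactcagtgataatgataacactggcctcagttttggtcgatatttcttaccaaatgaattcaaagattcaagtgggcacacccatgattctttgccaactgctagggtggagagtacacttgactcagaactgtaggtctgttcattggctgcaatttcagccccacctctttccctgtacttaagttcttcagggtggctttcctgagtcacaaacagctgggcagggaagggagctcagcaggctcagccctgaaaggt

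The Cyp3a11 window held 1 AGGTCA, 162 bases before the start, and 1 AGTTCA on the opposite strand, 142 bases before it. Cyp3a25 held AGGTCA on both strands, 176 and 155 bases before the start, and Cyp3a59 held the same pair 177 and 156 bases before it. The transcripts of these neighbours are 97.0% identical over the aligned bases. The Cyp3a44 window held 1 AGGTCA, and those of Cyp3a13 and Cyp3a16 held neither half-site. Of the 27025 RefSeq windows of this length, 27.6% held at least 1 of the half-sites, against 10 of the 28 windows matched to the chosen genes, or 35.7%. These matches describe the letters of the windows and not binding in these livers.

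The P450 genes spanned a wide range of mRNA levels. Per kb of exon, the highest mean level was 32100 times the lowest, 9 genes were above 100 CPM per kb, 7 between 10 and 100, 6 between 1 and 10, and 8 under 1. Cyp2e1, the enzyme that oxidises ethanol, acetone and paracetamol, led at 3014 CPM per kb. Cyp3a11, the main drug- and steroid-metabolising Cyp3a enzyme of mouse liver, followed at 537 CPM per kb, then Cyp3a25 at 305, Cyp2d10 at 304, Cyp2d9 at 291 and Cyp2d26 at 282 CPM per kb. The last 4 were close, and their order changed between livers. The length used was that of all annotated exons merged. It was 5093 bases for Cyp3a11 and 2658 for Cyp2d9, against 2344 and 1712 in their longest protein-coding transcripts. Levels per kb, and the order of the genes below Cyp2e1, depend on the length used. Cyp2f2 stood at 198, Cyp2j5 at 140 and Cyp2a5 at 107 CPM per kb, and Cyp2a12, Cyp1a2 and Cyp3a13 at 67.6, 54.8 and 54.0 CPM per kb. As a share of all counts on P450 genes, not corrected for length, Cyp2e1 took 49.2% and Cyp3a11 19.5%, so that these genes held 68.7% together. All other P450 genes were at most 5.92% each, the share of Cyp2d9.

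**Figure D1:**
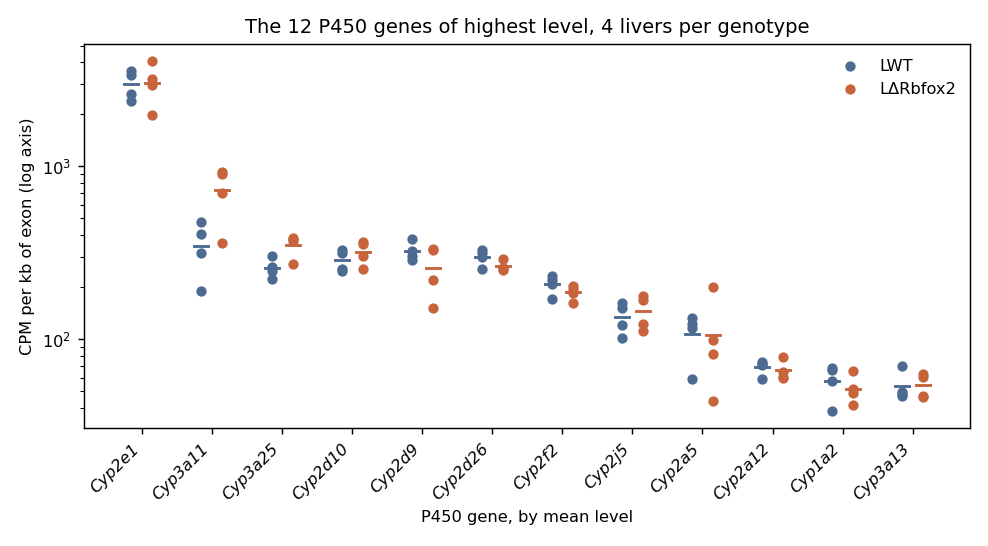
Level of the 12 P450 genes with the highest mean, in CPM per kb of exon on a log axis, with 1 point per liver (4 LWT, 4 LΔRbfox2) and a bar at each genotype's mean. Cyp2e1 lies above all others in both genotypes, and the genotypes overlap for every gene shown, with the widest gap between means for Cyp3a11.

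The summed level of the 30 P450 genes was 10820, 14344, 13595 and 10710 CPM in LWT replicates 1 to 4. In LΔRbfox2 replicates 1 to 4 it was 11488, 12077, 18416 and 15686 CPM. The ranges overlapped, with means of 12367 ± 1876 CPM and 14417 ± 3248 CPM (SD, n = 4 each), and as a share of raw counts the sum took 1.10% to 1.59% in LWT and 1.22% to 1.38% in LΔRbfox2 livers. The make-up of this sum differed more than its size. Cyp3a11 took 14.8%, 16.9%, 15.2% and 9.10% of the P450 counts in the LWT livers and 31.1%, 15.3%, 25.8% and 29.5% in the LΔRbfox2 livers. LΔRbfox2 replicates 1, 3 and 4 were thus above every LWT liver, and replicate 2 was within the LWT range. Cyp2e1 took 47.5% to 53.6% of the P450 counts in LWT livers and 37.1%, 52.9%, 47.4% and 44.0% in LΔRbfox2 replicates 1 to 4. These are shares of 1 sum, so a larger share of Cyp3a11 lowers that of Cyp2e1 by itself.

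Of the 34 genes, 32 passed the filter on low counts and were tested, 28 of them P450 genes. Cyp2b9 (86 counts over the 8 livers) and Cyp2g1 (94 counts) were not tested. At an adjusted P of at most 0.05, edgeR's quasi-likelihood test called 0 of the 32, as it called 0% of the 13856 genes tested, and DESeq2 called 0 of the 32 against 0.0722% of all genes. The smallest adjusted P among the 32 was 0.504 from edgeR. At an unadjusted P under 0.05, 7 of the 32 were counted (21.9%), where the share over all genes was 9.79%. Of these, 6 were higher in LΔRbfox2 livers, namely Cyp2j6, Cyp3a11, Cyp3a16, Cyp3a25, Cyp3a44 and Cyp3a59, against a background of 7.95% in that direction. Nr1i2 was the 1 lower gene, against a background of 1.83%. Log2 fold changes were above 0 for 15 of the 32 genes (46.9%) and for 48.4% of all genes, with medians of −0.04 and −0.02. In TMM-scaled CPM, the values of the genotypes were separate for 1 of the 32, Nr1i2, which was lower in LΔRbfox2 livers. They were separate for 2.28% of all genes (1.05% higher and 1.23% lower).

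**Figure D2:**
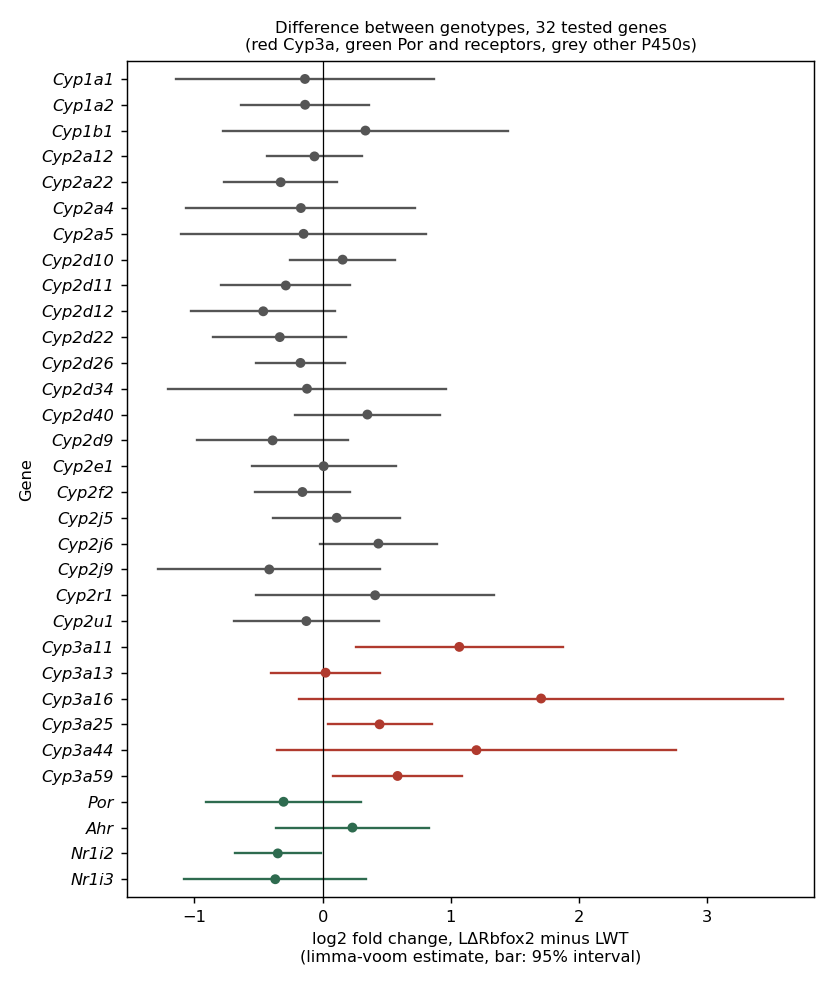
Log2 fold change, LΔRbfox2 minus LWT, of the 32 tested genes as limma-voom estimates with 95% intervals (n = 4 livers per genotype). The intervals of Cyp3a11, Cyp3a25 and Cyp3a59 lie above 0, that of Nr1i2 lies under 0, and all others include 0.

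The Cyp3a enzymes, which oxidise steroids and a large part of all drugs, had higher means in LΔRbfox2 livers at 6 of 6 genes, Cyp3a13 by a log2 fold change of 0.01. In edgeR, 5 had an unadjusted P under 0.05 and none an adjusted one. Over all genes, 48.4% had a log2 fold change above 0 and 7.95% were higher at that unadjusted P. The summed level of the 6 was 2505 ± 608 CPM in LWT and 4652 ± 1488 CPM in LΔRbfox2 livers (SD, n = 4 each). Cyp3a41a, outside the rule, had 62, 20, 16 and 10 counts in LWT and 29, 50, 25 and 36 in LΔRbfox2 replicates 1 to 4. Cyp3a41b had 52, 20, 13 and 11 against 30, 47, 30 and 41 counts, and both were highest in LWT replicate 1. Cyp3a11 (ENSMUSG00000056035, chr5:145854426-145879964, minus strand) was at 1606, 2426, 2072 and 974 CPM in LWT replicates 1 to 4. Its level was 3569, 1845, 4758 and 4620 CPM in LΔRbfox2 replicates 1 to 4. LΔRbfox2 replicates 1, 3 and 4 were above all LWT livers, and replicate 2 lay among them. The means were 1770 ± 628 and 3698 ± 1345 CPM, a ratio of 2.09. The log2 fold change was 1.06 (standard error 0.36, 95% interval 0.26 to 1.87 from limma-voom), with an adjusted P of 0.504 in the edgeR test.

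Cyp3a25 (ENSMUSG00000029630) and Cyp3a59 (ENSMUSG00000061292) are neighbours of near-identical sequence at the end of the same cluster. Cyp3a25 was at 628, 520, 463 and 544 CPM in LWT and at 769, 565, 806 and 795 CPM in LΔRbfox2 replicates 1 to 4. LΔRbfox2 replicate 2 again lay within the LWT range, and the other LΔRbfox2 livers above it. The CPM of LΔRbfox2 replicates 3 and 4 are raised by TMM factors of 0.724 and 0.776. As a share of all counts, Cyp3a25 in them (27727 of 47506181 and 25669 of 41646283) was under LWT replicate 1 (24047 of 37482458). The log2 fold change was 0.45 (standard error 0.18), with an adjusted P of 0.504 in edgeR. Cyp3a59 was at 43.8, 36.9, 29.0 and 38.1 CPM in LWT and at 57.4, 42.0, 79.3 and 46.6 CPM in LΔRbfox2 replicates 1 to 4, with only LΔRbfox2 replicate 2 under the highest LWT liver. As a share of all counts, Cyp3a59 in LΔRbfox2 replicate 4 (1506 of 41646283) was also under LWT replicate 1 (1676 of 37482458). The estimated log2 fold change was 0.61 (standard error 0.23), with an adjusted P of 0.504 in edgeR. Of the 100-base words in their exons, 6.79% of those of Cyp3a25 and 7.39% of those of Cyp3a59 also occur in another gene, so a part of their reads can be assigned to either. The ratio of Cyp3a25 to Cyp3a59 counts stayed between 10.2 and 17.0 in all livers, which does not tell whether reads were misassigned. The counts of Cyp3a59 are therefore uncertain.

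Cyp3a16, known as a Cyp3a form of fetal liver, and Cyp3a44, known as a form more abundant in females, were near the floor of detection. Cyp3a16 (ENSMUSG00000038656) had 2, 28, 13 and 9 counts in LWT and 39, 12, 48 and 57 counts in LΔRbfox2 replicates 1 to 4. LΔRbfox2 replicates 1, 3 and 4 had the 3 highest values. Cyp3a44 (ENSMUSG00000054417) had 35, 41, 26 and 20 counts in LWT and 46, 36, 63 and 220 counts in LΔRbfox2 replicates 1 to 4, so that replicate 4 alone held most of the LΔRbfox2 counts. The log2 fold change from edgeR was 1.89 for each, both with an adjusted P of 0.504. Limma-voom estimated 1.70 for Cyp3a16 (95% interval −0.18 to 3.59) and 1.199 for Cyp3a44 (−0.36 to 2.76), and both intervals include 0. Without LΔRbfox2 replicate 4, the log2 fold change of Cyp3a44 in edgeR was 0.73, at an unadjusted P above 0.05. Their transcripts are 91.4% and 93.4% identical to that of Cyp3a11, which had 911436 counts over the 8 livers against 208 and 487, so a small share of misassigned Cyp3a11 reads would be large beside them, and this was not tested.

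Cyp3a13 (ENSMUSG00000029727) lies on chromosome 5 outside the cluster and is also expressed in the intestine. It was at 147, 139, 206 and 142 CPM in LWT and at 137, 139, 187 and 179 CPM in LΔRbfox2 replicates 1 to 4. The genotypes overlapped over most of their range, and the log2 fold change was 0.01 (95% interval −0.41 to 0.45 from limma-voom, adjusted P = 0.975 from edgeR). The ratio of Cyp3a11 to Cyp3a13 counts, which does not depend on how libraries are scaled, was 6.84 to 17.4 in LWT livers and 26.0, 13.2, 25.5 and 25.9 in LΔRbfox2 replicates 1 to 4.

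**Figure D3:**
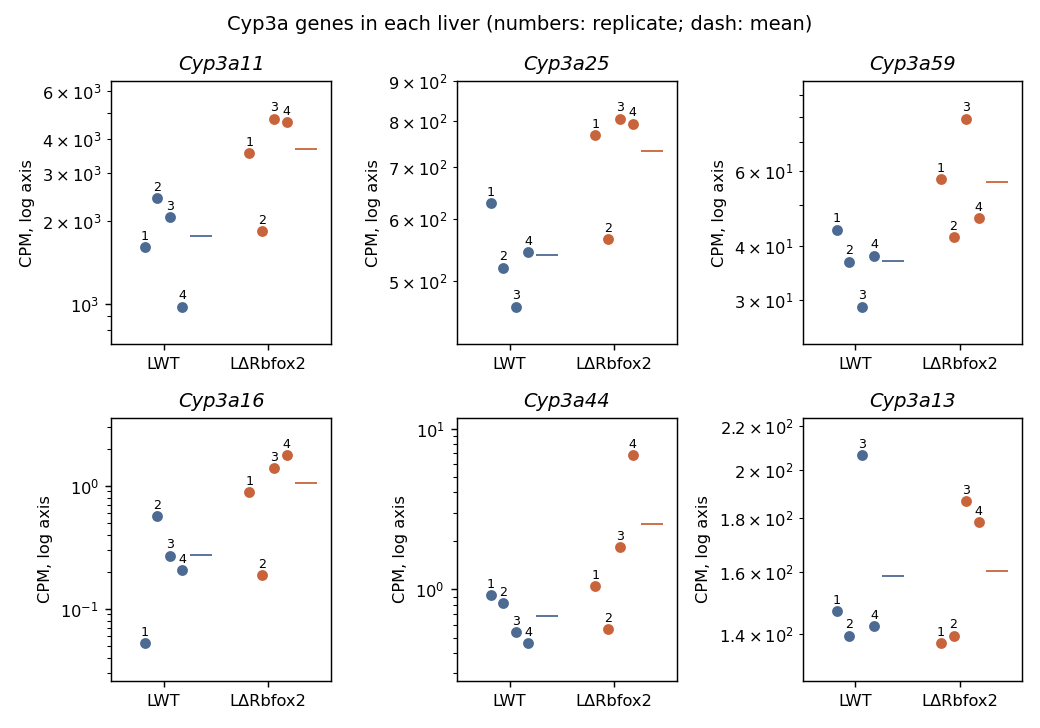
TMM-scaled CPM of the 6 Cyp3a genes on log axes, with 1 numbered point per liver (4 LWT, 4 LΔRbfox2) and a dash at each mean. For the 5 genes other than Cyp3a13, LΔRbfox2 replicates 1, 3 and 4 lie above every LWT liver and replicate 2 does not, and for Cyp3a13 the genotypes overlap over most of their range.

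The Cyp3a difference rested on LΔRbfox2 replicates 1, 3 and 4. LΔRbfox2 replicate 2 kept the most Rbfox2 mRNA of its genotype, and its place on the principal axis was beside LWT replicates 1 and 4, which had the lowest Cyp3a11 levels of all livers. The part of either in the difference was not tested. Leaving out 1 liver at a time gave between 2 and 5 Cyp3a genes at an unadjusted P under 0.05, with 2 when LWT replicate 3 or 4 or LΔRbfox2 replicate 3 or 4 was left out, and log2 fold changes of Cyp3a11 from 0.86 to 1.29. When each library was corrected for gene length and GC content, Cyp3a11 had a log2 fold change of 0.86 and Cyp3a16 of 1.41, both still at an unadjusted P under 0.05, while that of Cyp3a59 was 0.12 and that of Cyp3a25 turned to −0.03.

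Cyp2e1 (ENSMUSG00000025479) had close means in both genotypes. It was at 5137, 7693, 7243 and 5681 CPM in LWT and at 4260, 6384, 8728 and 6905 CPM in LΔRbfox2 replicates 1 to 4. LΔRbfox2 livers held both the lowest and the highest value. The log2 fold change was 0.03 (95% interval −0.56 to 0.57 from limma-voom, adjusted P = 0.965 from edgeR), and it was −0.01 with upper-quartile factors. The ratio of Cyp2e1 to Cyp3a11 counts was 3.17 to 5.83 in LWT livers and 1.19, 3.46, 1.83 and 1.50 in LΔRbfox2 replicates 1 to 4, so that LΔRbfox2 replicate 2 again fell among the LWT livers.

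In the Cyp1 family, Cyp1a2, which metabolises caffeine and aromatic amines in pericentral hepatocytes, was the abundant member. It was at 77.7, 116, 133 and 138 CPM in LWT and at 83.8, 98.2, 103 and 132 CPM in LΔRbfox2 replicates 1 to 4. LWT livers reached both the lowest and the highest value, and the log2 fold change was −0.16 (standard error 0.23, adjusted P = 0.751 from edgeR). Cyp1a1, the usual marker of AHR activity, was at 0.261, 0.723, 0.749 and 0.806 CPM in LWT and at 0.640, 0.328, 0.465 and 0.991 CPM in LΔRbfox2 replicates 1 to 4. LWT replicate 1 was lowest and LΔRbfox2 replicate 4 highest of all, with a log2 fold change of −0.09 (edgeR, adjusted P = 0.930). Cyp1b1, made mainly outside hepatocytes, was at 0.131, 0.763, 0.686 and 0.484 CPM in LWT and at 0.548, 0.531, 0.436 and 0.805 CPM in LΔRbfox2 replicates 1 to 4. The same livers were at its ends, both genes were at few counts in every liver, and 0 of the 3 Cyp1 genes had an unadjusted P under 0.05.

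The Cyp2a genes overlapped in both genotypes. Cyp2a5, the coumarin hydroxylase of mouse liver, was at 122, 276, 255 and 240 CPM in LWT and at 206, 91.0, 414 and 170 CPM in LΔRbfox2 replicates 1 to 4. It varied 4.55-fold among the LΔRbfox2 livers, with replicate 3 highest and replicate 2 lowest of all livers. The estimated log2 fold change was −0.02 (standard error 0.43, adjusted P = 0.984 from edgeR). Cyp2a4, a steroid hydroxylase, was at 3.78 to 16.2 CPM over all livers. The transcripts of both are 98.2% identical, 11.2% and 12.1% of the 100-base words of Cyp2a4 and Cyp2a5 also occur in another gene, and the ratio of their counts lay between 21.02 and 28.01 in every liver, so the counts of Cyp2a4 are uncertain. Cyp2a12 was at 203, 247, 250 and 254 CPM in LWT and at 225, 206, 275 and 209 CPM in LΔRbfox2 replicates 1 to 4, with LWT replicate 1 lowest and LΔRbfox2 replicate 3 highest of all livers. The estimated log2 fold change was −0.06 (edgeR, adjusted P = 0.876).

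The 8 Cyp2d genes, a cluster on chromosome 15 related to the human drug-metabolising CYP2D6, summed to 2037 ± 96.4 CPM in LWT and 1841 ± 338 CPM in LΔRbfox2 livers (SD, n = 4 each). The means of 2 were higher and of 6 lower in LΔRbfox2 livers, and 0 had an unadjusted P under 0.05. Cyp2d9, a testosterone hydroxylase more abundant in males, was at 1008, 805, 862 and 761 CPM in LWT and at 401, 871, 889 and 585 CPM in LΔRbfox2 replicates 1 to 4. LΔRbfox2 replicates 1 and 4 were under all LWT livers and replicates 2 and 3 within their range, for a log2 fold change of −0.32 (standard error 0.26, adjusted P = 0.614 from edgeR). Cyp2d26 was the steadiest of the 32 genes, at 457, 591, 564 and 538 CPM in LWT and 449, 462, 522 and 466 CPM in LΔRbfox2 replicates 1 to 4. Its pooled SD within genotypes was 0.13 on the log2 scale and its log2 fold change −0.18 (edgeR, adjusted P = 0.639). Cyp2d10 was at 421, 539, 520 and 412 CPM in LWT and 419, 501, 588 and 603 CPM in LΔRbfox2 replicates 1 to 4, with a log2 fold change of 0.16 (edgeR, adjusted P = 0.709). The remaining Cyp2d genes were lower in level, from Cyp2d22 at 25.9 to Cyp2d34 at 0.45 CPM per kb. Cyp2d34 was at 2.19, 0.703, 0.541 and 2.23 CPM in LWT and at 1.14, 1.25, 1.11 and 0.712 CPM in LΔRbfox2 replicates 1 to 4. It was among the 5 genes with the widest spread within genotypes, and its LΔRbfox2 livers all lay inside the LWT range.

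Cyp2f2, which activates naphthalene and is more abundant in periportal hepatocytes, was at 473, 348, 424 and 446 CPM in LWT and at 414, 397, 375 and 328 CPM in LΔRbfox2 replicates 1 to 4. LΔRbfox2 livers were on average lower, but only replicate 4 was under all LWT livers, and the log2 fold change was −0.16 (standard error 0.17, adjusted P = 0.678 from edgeR). The Cyp2j enzymes make epoxides of arachidonic acid. Cyp2j5 was at 240, 379, 356 and 286 CPM in LWT and at 287, 261, 397 and 417 CPM in LΔRbfox2 replicates 1 to 4, with LΔRbfox2 replicates 3 and 4 highest of all and a log2 fold change of 0.11 (edgeR, adjusted P = 0.826). Cyp2j6 was at 28.45, 34.2, 32.7 and 35.5 CPM in LWT and at 43.3, 31.4, 59.8 and 45.8 CPM in LΔRbfox2 replicates 1 to 4. As for Cyp3a11, all LΔRbfox2 livers except replicate 2 were above every LWT liver. As a share of all counts, without TMM factors, Cyp2j6 in LΔRbfox2 replicate 4 (1479 of 41646283) was under LWT replicate 4 (1540 of 38607789). The estimated log2 fold change was 0.46 (standard error 0.20), with an adjusted P of 0.504 in edgeR.

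Among the single-member subfamilies, Cyp2r1, a vitamin D hydroxylase, was at 5.12 to 7.82 CPM in LWT and 3.67 to 17.2 CPM in the LΔRbfox2 group (log2 fold change 0.64, adjusted P = 0.549 from edgeR). It varied 4.68-fold among the LΔRbfox2 livers, more than any other tested P450 gene above 1 CPM in every liver. Cyp2u1, which hydroxylates long-chain fatty acids, was at 6.93 to 8.76 CPM and 4.46 to 9.71 CPM. Cyp2b10, the usual target of CAR, was under the floor of 80 counts with 52 in all, 9, 4, 1 and 6 in LWT and 7, 7, 12 and 6 in LΔRbfox2 replicates 1 to 4. The Cyp2b subfamily was thus represented by Cyp2b9 alone, at 0.09 to 0.52 CPM, and a difference in it was not detectable at this depth.

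Por (ENSMUSG00000005514), the electron donor of all these enzymes, was at 270, 262, 372 and 480 CPM in LWT and at 269, 422, 224 and 216 CPM in LΔRbfox2 replicates 1 to 4. The genotypes overlapped, with LΔRbfox2 replicate 2 among the higher livers and replicates 3 and 4 lowest of all. The means were 346 ± 102 and 283 ± 95.9 CPM, and the log2 fold change was −0.29 (standard error 0.27, adjusted P = 0.655 from edgeR). Of the 17 genes of haem synthesis and breakdown and of electron transfer to P450s, all tested, 0 were higher and 1 was lower in LΔRbfox2 livers at an unadjusted P under 0.05, and the median log2 fold change was 0.11. The lower gene was Alas1 (ENSMUSG00000032786), the first and rate-limiting enzyme of haem synthesis. It was at 379, 866, 631 and 482 CPM in LWT and at 100, 276, 309 and 196 CPM in LΔRbfox2 replicates 1 to 4. Every LΔRbfox2 liver was under every LWT liver, as for 1.23% of all genes. The means were 589 ± 211 and 220 ± 93.3 CPM, and the log2 fold change was −1.42 (standard error 0.37), with an adjusted P of 0.504 in edgeR.

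Nr1i2 (PXR, ENSMUSG00000022809) was at 52.8, 49.7, 58.7 and 62.7 CPM in LWT and at 43.6, 49.1, 42.8 and 40.1 CPM in LΔRbfox2 replicates 1 to 4. In TMM-scaled CPM it was the 1 gene of the 32 whose genotypes did not overlap. The gap was small, between 49.1 CPM in LΔRbfox2 replicate 2 and 49.7 CPM in LWT replicate 2. As a share of all counts, without TMM factors, Nr1i2 in LΔRbfox2 replicate 2 (3146 of 56177588) was above LWT replicate 1 (2020 of 37482458) and LWT replicate 2 (2474 of 44953789), so the genotypes overlapped. The means were 56.0 ± 5.86 and 43.9 ± 3.79 CPM, and the log2 fold change was −0.35 (standard error 0.15, 95% interval −0.69 to −0.01 from limma-voom), with an adjusted P of 0.504 in edgeR. The mean of PXR mRNA was thus lower in the livers with the higher means of its target family Cyp3a. Nr1i3 (CAR) was at 249, 148, 118 and 249 CPM in LWT and at 83.1, 172, 159 and 171 CPM in LΔRbfox2 replicates 1 to 4, with LΔRbfox2 replicate 1 lowest of all and the others within the LWT range. The estimated log2 fold change was −0.38 (standard error 0.32, adjusted P = 0.615 from edgeR), and its exons overlap those of Tomm40l on the other strand. Ahr was at 30.2, 11.4, 19.9 and 20.7 CPM in LWT and at 21.4, 27.2, 21.3 and 21.5 CPM in LΔRbfox2 replicates 1 to 4, with the lowest and the highest value both in LWT livers and a log2 fold change of 0.15 (edgeR, adjusted P = 0.798).

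**Figure D4:**
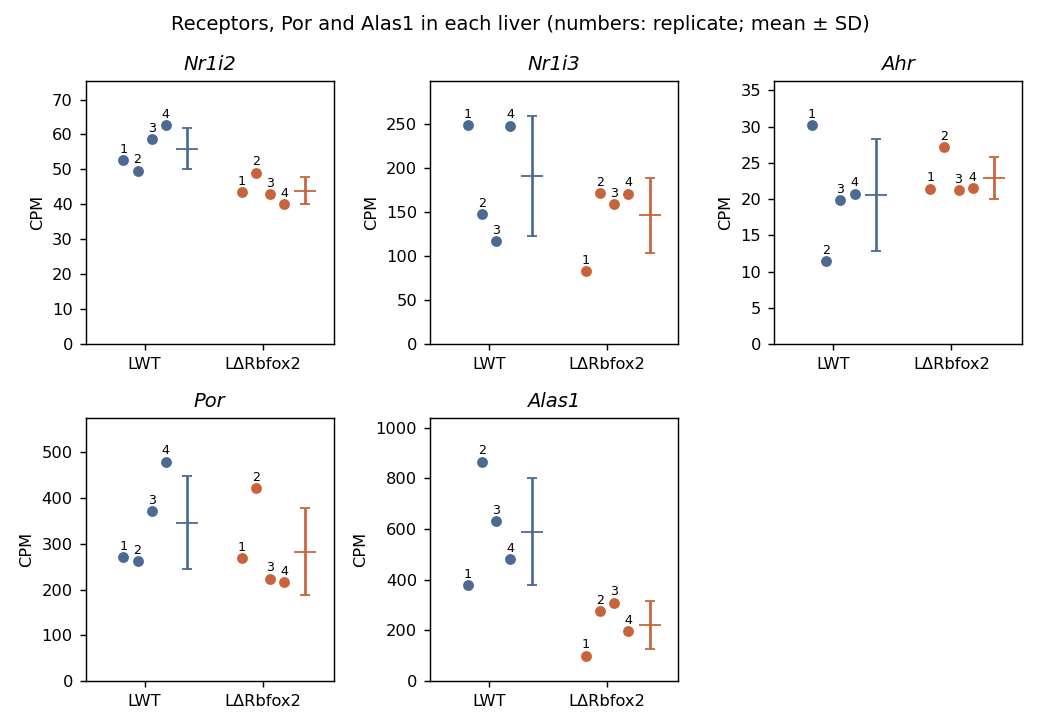
TMM-scaled CPM of the receptors Nr1i2, Nr1i3 and Ahr, of Por and of Alas1 in each liver, with numbered points for replicates and bars for the mean ± SD of 4 livers per genotype; axes start at 0. The genotypes are separate for Nr1i2, by 49.1 against 49.7 CPM, and for Alas1, and overlap for Nr1i3, Ahr and Por.

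The partners of the receptors and their other target genes gave no gene at an unadjusted P under 0.05. For 15 partners and co-regulators, among them Rxra, Arnt, Hnf4a and Ncor1, 14 were tested, and 3 had a higher and 11 a lower mean in LΔRbfox2 livers, with a median log2 fold change of −0.17. For 15 target genes of AHR, CAR and PXR that are not P450s, such as Nqo1, Abcc2 and Ces2a, 14 were tested, and 6 were higher and 8 lower, with a median of −0.03. Neither list held a gene whose genotypes were separate.

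Receptor or donor mRNA was set against target mRNA across the 8 livers for 4 relations, with exact two-sided permutation tests over all pairings and Benjamini-Hochberg adjustment over the 4. Nr1i2 and Cyp3a11 (log2 CPM) were inversely related, with Pearson's r of −0.913 (exact permutation P = 0.00216, adjusted 0.00863) and Spearman's rho of −0.857 (exact permutation P = 0.0107, adjusted 0.0429). Without LWT replicate 4 and LΔRbfox2 replicate 4, the livers farthest from the median of Nr1i2, r was −0.796 (n = 6). Because the genotype means differed in both genes, neither at an adjusted P under 0.05 in edgeR, part of the pooled r is the difference between these means. Within the 4 LWT livers r was −0.744 and within the 4 LΔRbfox2 livers −0.938. In a test added after seeing the data, with genotype means removed and the 576 pairings within genotypes enumerated, r was −0.825 (exact permutation P = 0.0295, adjusted over the 4 relations 0.118) and rho −0.80 (exact permutation P = 0.0625, adjusted 0.222), so the relation did not pass within genotypes. Without LWT replicate 4 alone, r was −0.857 with an adjusted permutation P of 0.0786. Of the other 13855 genes, 1.47% were related to Nr1i2 inversely and at least as strongly, and 1.70% to Cyp3a11 (1.76% and 8.95% in either direction). In a comparison that was not planned, both genes and 3 others were set against the principal axis of all genes, which includes them. Cyp3a11 had r = 0.908 with it (exact permutation P = 0.00285, adjusted over 5 genes 0.0143), rho = 0.929 (exact permutation P = 0.00223, adjusted 0.0112) and r = 0.863 without LWT replicates 1 and 4. Nr1i2 had r = −0.737 (exact permutation P = 0.0434, adjusted 0.0724), rho = −0.786 (exact permutation P = 0.0279, adjusted 0.0465) and r = −0.596 without the same livers, so that only its rho passed. Cyp2j6, Cyp3a25 and Alas1 had r = 0.756, 0.495 and −0.209. The part of this axis in the relation of Nr1i2 and Cyp3a11 was not tested.

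**Figure D5:**
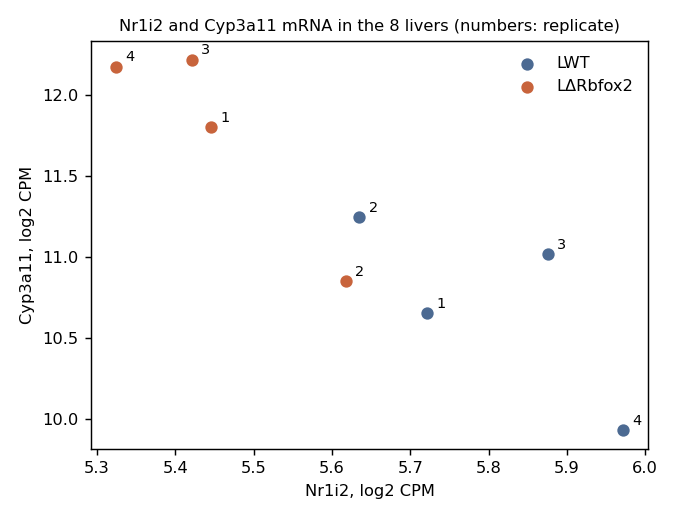
Cyp3a11 against Nr1i2 in log2 CPM, with 1 point per liver coloured by genotype and numbered by replicate (n = 8). The points fall from upper left, where LΔRbfox2 replicates 1, 3 and 4 lie, to LWT replicate 4 at lower right, with r = −0.913. LΔRbfox2 replicate 2 lies within the LWT range for Cyp3a11 and just under it for Nr1i2.

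The other relations did not pass. Por and the summed P450 level had r = −0.630 (exact permutation P = 0.096, adjusted 0.192) and rho = −0.786 (exact permutation P = 0.0279, adjusted 0.0559), with r = −0.464 without LWT replicate 4 and LΔRbfox2 replicate 2, and −0.379 and −0.693 within LWT and LΔRbfox2 livers. With the correction for gene length and GC content this r turned to 0.10. Ahr and Cyp1a2 had r = −0.469 (exact permutation P = 0.251, adjusted 0.335) and rho = −0.667 (exact permutation P = 0.0831, adjusted 0.111), r = −0.455 without LWT replicates 1 and 2, and −0.519 and −0.161 within the genotypes. Nr1i3 and Cyp2b10 had r = 0.331 (exact permutation P = 0.424, adjusted 0.424) and rho = 0.357 (exact permutation P = 0.389, adjusted 0.389), r = 0.492 without LWT replicate 1 and LΔRbfox2 replicate 1, and 0.939 and 0.114 within the genotypes, on at most 12 counts of Cyp2b10 per liver.

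Markers of cell types and states were measured beside these results. In whole liver, fewer cells of a type and less RNA per cell cannot be told apart. Of 8 pericentral hepatocyte markers that are not P450s, 1 was lower at an unadjusted P under 0.05 (Slc1a2, log2 fold change −1.16), and their sum was 1345 to 1708 CPM in LWT and 1139 to 2011 CPM in LΔRbfox2 livers. Of 8 periportal markers, 0 were counted, and their sum was 6721 to 10977 and 7080 to 9906 CPM. Of 6 Kupffer cell markers, 5 had log2 fold changes under 0, and 2 were lower at an unadjusted P under 0.05 in edgeR (Clec4f, −0.73, and Csf1r, −0.94). Their sums were 62.6 to 108 and 36.2 to 70.0 CPM. Over all genes, 1.83% were lower and 7.95% higher at that unadjusted P. The genotypes were separate for Slc1a2 and Clec4f, both lower in LΔRbfox2 livers, as for 1.23% of all genes. For sinusoidal endothelium, stellate cells and bile duct, 0 of 6, 0 of 6 and 0 of 4 tested markers were counted, with sums of 63.6 to 81.1 against 54.5 to 72.8, 65.8 to 134 against 84.2 to 129 and 14.6 to 25.8 against 16.4 to 60.9 CPM. No marker of these lists was at 0 in every liver. Of 5 male-high genes that are not P450s of these families, 1 was higher (Mup20, log2 fold change 0.95), at 4866, 4724, 5240 and 3201 CPM in LWT and 8586, 3883, 9949 and 12338 CPM in LΔRbfox2 replicates 1 to 4, the same replicates being high as for Cyp3a11. The other 4 male-high genes went the other way, with log2 fold changes under 0 and 0 at an unadjusted P under 0.05 in edgeR. Of the female-high genes, 2 of 5 were tested and 0 counted. Sult2a1, a steroid sulfotransferase of this list named after its values were seen, was too low to be tested. It had 4, 1, 3 and 0 counts in LWT and 12, 15, 7 and 4 counts in LΔRbfox2 replicates 1 to 4. In TMM-scaled CPM every LΔRbfox2 liver was above every LWT liver, as for 1.05% of all genes tested. As a share of all counts, LΔRbfox2 replicate 4 (4 of 41646283) was under LWT replicate 1 (4 of 37482458). Of 4 intestinal and kidney markers 1 was tested and higher (Fabp2, 0.88), and 1 was at 0 in every liver. Of 6 acute phase genes, 2 were lower (Saa2, −3.36, and Lcn2, −2.34, and by limma-voom −1.60 and −1.003). Both 95% intervals from limma-voom include 0 (−4.93 to 1.74 and −3.18 to 1.17). Saa1, Saa2 and Lcn2 were at 681, 455 and 42.5 CPM in LWT replicate 4, against at most 62.6, 36.7 and 3.37 CPM in the other livers. This liver had the least Cyp3a11. Without it, the log2 fold change of Cyp3a11 was 0.86. The part of the other marker values in the results was not tested.

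The genes differed widely in how far the livers of 1 genotype spread. The pooled within-genotype SD of log2 CPM had a median of 0.37 over the 32 tested genes and 0.39 over all genes tested, and ran from 0.13 for Cyp2d26 to 1.22 for Cyp3a16. Cyp3a44, Cyp2d34, Cyp1b1 and Cyp2a5 followed Cyp3a16 at the wide end, and of these only Cyp2a5 was abundant. Nr1i2, at 0.14, was the steadiest after Cyp2d26. In TMM-scaled CPM its genotypes were separate, at a log2 fold change of −0.35, within the size range of those of genes that overlapped.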

How the data were processed

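RNA was extracted from frozen livers of fasted mice, poly(A) RNA was enriched, and strand-marking libraries were made and sequenced as paired ends by the authors. The submitters' processing notes name CASAVA 1.8.4, TopHat2 2.0.11 and featureCounts on GRCm38 (mm10). The authors deposited whole-number counts of reads per gene, without normalization, for 46078 Ensembl identifiers in 8 livers. Strand and multi-mapping settings of the counting are not given in the sources used here, so near-identical copies and overlapping genes are uncertain. Genotype and replicate came from the labels; their 12 weeks of diet are shorter than the feeding time in the paper's methods.

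Symbols, positions and exon lengths were taken from the GENCODE M21 gene models of GRCm38, where 45229 identifiers were found. The tests used edgeR 4.0.16 under R 4.3.3. Its filterByExpr function (minimum count 10, minimum total 15) kept 13856 genes, and TMM factors, glmQLFit and glmQLFTest with genotype as the only term gave P values, adjusted by Benjamini-Hochberg over all genes tested at a threshold of 0.05. Standard errors and intervals came from limma-voom (limma 3.58.1), and log2 CPM used a prior count of 2. No pair of libraries of a genotype was a copy (smallest chi-square per degree of freedom 97.8). That the livers of a genotype come from separate animals is implied by the labels, and P values measure the spread between these livers.

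Values are given in every liver for Por, the receptors, the 12 P450 genes highest per kb of exon, genes at an unadjusted P under 0.05 or with separate genotypes, the 5 genes of widest spread, and Cyp1a1 and Cyp2b10. The genes and lists were chosen with earlier results of these data known. Alternatives were DESeq2 size factors and test (version 1.42.0), upper-quartile factors, limma-voom, no filter, the replicate number as a block, a lowess correction (span 0.3) for gene length and GC content, both together, and each liver left out. The statistics were tested on simulated counts. Figures used Python 3.11.15 and matplotlib 3.10.9.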

Additional observations from a re-analysis of the deposited data

Results flagged for a closer look

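Within each genotype, the lowest or highest liver was compared with the gap to its nearest neighbour by Dixon's test. Among 50 groups of 4 livers, 6 held such a liver, where chance gives 2.5. Cyp1a1 was at 0.261 CPM in LWT replicate 1 against 0.723 to 0.806 CPM in the other LWT livers. Cyp2a12 was at 203 CPM in the same liver against 247 to 254 CPM. Cyp3a13 was at 206 CPM in LWT replicate 3 against 139 to 147 CPM. Cyp3a25 was at 565 CPM in LΔRbfox2 replicate 2 against 769 to 806 CPM in the other LΔRbfox2 livers. Ahr was at 27.2 CPM in the same liver against 21.3 to 21.5 CPM. Nr1i3 was at 83.1 CPM in LΔRbfox2 replicate 1 against 159 to 172 CPM.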

How the results depend on the processing

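No gene of the 32 passed an adjusted P of 0.05 under any alternative. Over all genes, DESeq2 called 10 genes (4 higher, 6 lower), among them Rbfox2 (log2 fold change −1.82, adjusted P = 1.99e-04), and every other alternative called 0 (335 to 1844 at an unadjusted P under 0.05, and 404 to 3475 with a liver left out). All genes at an unadjusted P under 0.05 split into 1102 higher and 254 lower, into 829 and 338 with upper-quartile factors, 711 and 359 when length and GC content were corrected for, and 186 and 197 with that correction and the block. Of the 32 genes, 6 were higher at an unadjusted P under 0.05, but 3 with limma-voom, 2 with the correction, 1 with the replicate block (Cyp3a11, log2 fold change 1.06) and 1 with both. With a liver left out it was 2 to 8. The 1 lower gene became 0 without a filter, 0 with the replicate block and 2 with the correction, and 0 to 2 with a liver left out. With the replicate block the log2 fold change of Rbfox2 was −1.88. Same-numbered deviations from the group means correlated at 0.127, −0.613, 0.122 and −0.514 for replicates 1 to 4, and no LWT liver correlated best with its own number. These values do not show a pairing by number. With 4 livers per genotype they cannot exclude one, and the labels used here do not give one.

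Of 181 values of single genes under the alternatives other than leaving out a liver, 169 kept their direction and 12 reversed. None of the 181 passed an adjusted P of 0.05, in the main test or the alternatives, so the threshold cannot show how stable they were. The 12 reversed values were small, but Cyp3a25 started from 0.4456 in the main edgeR test (unadjusted P = 0.035). With upper-quartile factors, Cyp2e1 was at −0.0147 and Cyp3a13 at −0.0313, and without a filter at −0.0048 and −0.024. With the correction, Cyp2e1 was at −0.20, Cyp2j5 at −0.22, Cyp3a13 at −0.27 and Cyp3a25 at −0.0333, and with the correction and the block at −0.23, −0.22, −0.24 and −0.0014. The r of Por with the summed P450 level was 0.0969 with the correction. With a liver left out, 21 of 184 values reversed, and the ranges across 0 were −0.42 to 0.13 for Cyp1a1, −0.19 to 0.40 for Cyp1b1, −0.55 to 0.24 for Cyp2a5, −0.16 to 0.19 for Cyp2e1, −0.0262 to 0.22 for Cyp2j5, −0.10 to 0.17 for Cyp3a13 and −0.0405 to 0.37 for Ahr. Rbfox2 ranged from −2.09 to −1.64, and r of Nr1i2 with Cyp3a11 from −0.968 to −0.857. The adjusted permutation P of this r was above 0.05 when LWT replicate 4 alone was left out (0.0786). With pairings permuted within genotypes, an alternative chosen after seeing the data, this r was −0.825 with an adjusted P of 0.118 (exact permutation). For Cyp3a44, the log2 fold change of 1.89 became 1.199 with limma-voom, 1.27 with the block, 1.28 with the correction and 0.88 with both. The cause was not tested. Precision is limited by 4 livers per genotype and 37482458 or more counts per liver.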
